A study of Homo sapiens with 6 samples.

Results

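The transcripts of the human mitochondrial chromosome were followed in 6 RNA sequencing libraries of SKOV3, an established cell line from a human ovarian carcinoma. The members were all genes that GENCODE release 29 places on that chromosome (GRCh38, chromosome M): 37 of the 58735 genes in the deposited tables, namely 13 mRNAs, 2 rRNAs and 22 tRNAs. All 37 were found by their Ensembl identifiers. The 3 TIPE2 libraries came from cells given a lentivirus with the human TIPE2 cDNA, and the 3 Vector libraries from cells given the empty vector. The labels state puromycin selection for 1 week for the TIPE2 cells, and both groups were grown in the same medium. They call the libraries biological replicates 1 to 3 of each group but do not say whether these came from separate transductions or cultures, so the p-values reflect only the spread among these 6 samples, which may be technical.

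Mitochondrial DNA is transcribed from both strands into long precursors that cover several genes. The tRNA genes stand between most of the rRNA and mRNA genes, and cutting the tRNAs out of the precursor frees the other RNAs. Most mitochondrial mRNAs then receive a short poly(A) tail, whereas MT-ND6 is known to lack one in human cells. The mRNAs encode core subunits of respiratory complexes I, III, IV and V. The rRNAs and tRNAs serve the ribosome that translates these mRNAs inside the organelle. By convention the strands of the DNA are called heavy and light, and the promoter on each gives 1 set of transcripts. In the annotation 28 genes read on the plus strand, and their RNAs are made on the heavy strand as template. The other 9, MT-ND6 and 8 tRNA genes, read on the minus strand with the light strand as template.

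Several sequences show how closely these genes are packed and where the FPKM of neighbours part. The tRNA genes MT-TW, MT-TA, MT-TN, MT-TC and MT-TY lie in a row between MT-ND2 and MT-CO1, from base 5512 to base 5891 of chromosome M. They are given 5′ to 3′ on their own strand with the anticodon in capitals, as GENCODE 29 has them. MT-TW reads on the plus strand and the other 4 on the minus strand.
MT-TW: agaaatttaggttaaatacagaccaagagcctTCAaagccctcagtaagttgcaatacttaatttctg
MT-TA: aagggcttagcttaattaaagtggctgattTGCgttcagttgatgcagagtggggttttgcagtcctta
MT-TN: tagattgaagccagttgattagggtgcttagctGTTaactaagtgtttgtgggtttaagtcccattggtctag
MT-TC: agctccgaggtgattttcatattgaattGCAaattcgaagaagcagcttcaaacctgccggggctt
MT-TY: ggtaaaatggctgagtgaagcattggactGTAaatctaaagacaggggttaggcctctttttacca

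MT-ATP8 (chromosome M, 8366 to 8572, plus strand) ends inside MT-ATP6, and the 46 bases it shares with that gene are in capitals. MT-ND4L (10470 to 10766, plus strand) shares its last 7 bases, also in capitals, with MT-ND4. A fragment that covers such bases cannot be given to 1 of the 2 genes with certainty.
MT-ATP8: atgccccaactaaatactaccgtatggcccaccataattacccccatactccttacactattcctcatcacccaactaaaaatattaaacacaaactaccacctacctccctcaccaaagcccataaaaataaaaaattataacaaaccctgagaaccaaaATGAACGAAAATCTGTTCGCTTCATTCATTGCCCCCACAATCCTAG
MT-ND4L: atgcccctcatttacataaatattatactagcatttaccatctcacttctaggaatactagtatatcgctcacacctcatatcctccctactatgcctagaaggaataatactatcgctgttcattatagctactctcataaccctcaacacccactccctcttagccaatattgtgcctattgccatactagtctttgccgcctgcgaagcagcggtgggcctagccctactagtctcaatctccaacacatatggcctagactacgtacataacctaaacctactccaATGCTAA

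Base composition separated MT-ND6 from the other mRNAs. The 12 plus-strand mRNAs held 6.28% to 16.2% G and 29.5% to 36.0% C, against 35.6% G and 7.05% C in MT-ND6. Of the 13 mRNA genes, 6 had lengths that are no multiple of 3. MT-ND1 ended in TA, and MT-ND2, MT-CO3, MT-ND3, MT-ND4 and MT-CYB ended in a lone T. In such genes the poly(A) tail is known to complete the stop codon.

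The libraries held 15983317 to 18583473 gene-assigned fragments each. TNFAIP8L2, the gene of TIPE2, was at 58.4, 47.2 and 48.8 FPKM in the cells given its cDNA (TIPE2 1, 2 and 3) and at 0, 0.0476 and 0 FPKM with the empty vector (Vector 1, 2 and 3), as the labels say (limma log2 change 5.68, SE 0.11, adjusted p = 4.92e-07). FPKM are fragments scaled by gene length and library depth. Epithelial markers were expressed, with KRT8 at 179 to 279 FPKM and PAX8 at 26.2 to 39.1 FPKM, but CDH1 stayed at 0.238 to 1.83 FPKM and MUC16 at or under 0.0064 FPKM. The leukocyte marker CD3E and the endothelial marker CDH5 were at 0 in every library. The 4 fibroblast markers, led by COL1A1, summed to 0.953 to 4.39 FPKM in the TIPE2 and 0.533 to 1.78 FPKM in the Vector libraries, and 3 of them were above 0 in every library. The 3 endothelial markers, nearly all PECAM1, summed to 0.238 to 0.939 FPKM against 0.103 to 0.21 FPKM. The 4 leukocyte markers summed to at most 0.232 FPKM. COL1A1 and PECAM1 were highest in TIPE2 1 and 2, the libraries with the largest mitochondrial share. The epithelial markers EPCAM, CDH1 and ERBB2 were also highest in these libraries. ERBB2 had 792 and 785 FPKM there and 383 to 618 FPKM in the others. KRT8 and KRT18 were lowest in TIPE2 1 and 2, and KRT19, PAX8, WT1 and MUC16 followed neither order. The part of all these markers in the results was not tested.

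Mitochondrial mRNAs were among the most abundant transcripts of these cells. By mean FPKM over the 6 libraries, MT-CO1, MT-CO2, MT-CO3 and MT-ATP6 ranked 1 to 4 among all genes, and 10 of the 13 mRNAs were among the top 25. Apart from MT-ATP8, the mRNAs spanned 384 to 6934 FPKM. The rRNAs spanned 282 to 2970 FPKM and the tRNA genes 0 to 2468 FPKM.

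**Figure D1:**
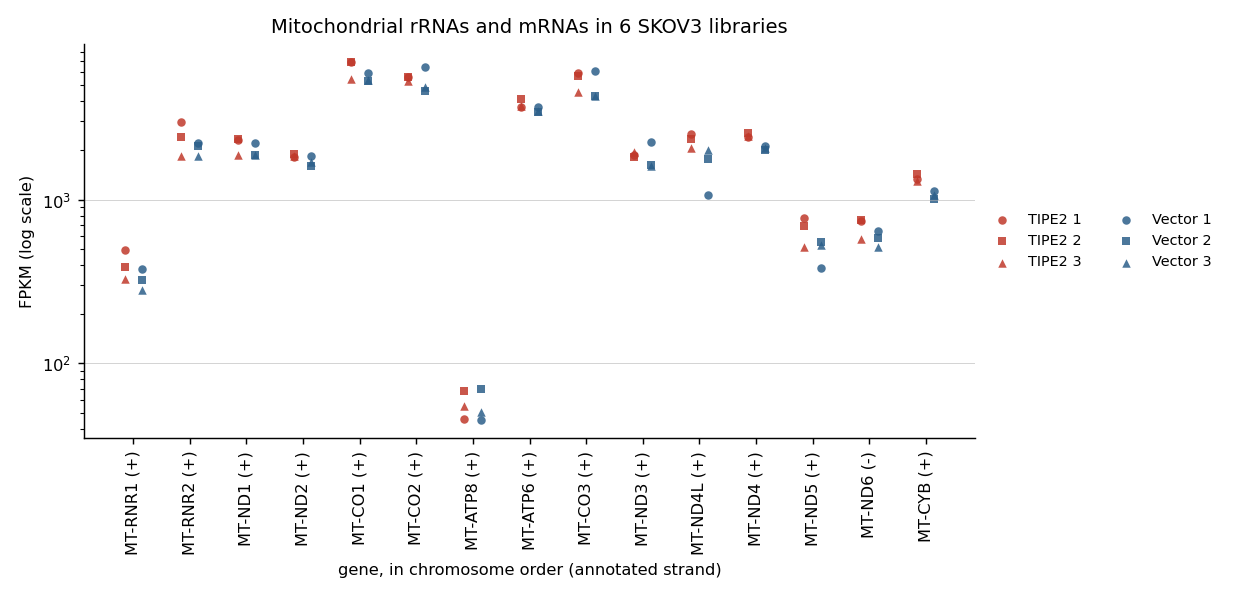
FPKM (log axis) of the 2 rRNAs and 13 mRNAs in chromosome order, with TIPE2 libraries in red and Vector libraries in blue and the annotated strand in brackets. Each point is 1 library. MT-CO1, MT-CO2, MT-CO3 and MT-ATP6 stand highest, MT-ATP8 lies at 44.9 to 69.4 FPKM, and the groups overlap for all but MT-ND4L, MT-ND4 and MT-CYB.

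Complex IV, cytochrome c oxidase, which passes electrons to oxygen, takes its catalytic core from MT-CO1, MT-CO2 and MT-CO3. MT-CO1 had 6934, 6908 and 5426 FPKM in TIPE2 1, 2 and 3 and 5926, 5338 and 5357 FPKM in Vector 1, 2 and 3. TIPE2 1 and 2 were higher than every other library, and TIPE2 3 lay inside the Vector range, so the groups overlapped. MT-CO2 had 5647, 5585 and 5330 FPKM against 6441, 4596 and 4884 FPKM. MT-CO3 had 5939, 5683 and 4562 FPKM against 6119, 4273 and 4268 FPKM. For both genes Vector 1 was the highest library of all, and the fitted log2 changes of 0.07 (SE 0.20) and 0.15 (SE 0.23) were within their standard errors.

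Complex V, the ATP synthase, has 2 subunits of its membrane part encoded here, and the FPKM of their genes differed widely. MT-ATP6 had 3654, 4140 and 3731 FPKM in the TIPE2 libraries and 3671, 3447 and 3495 FPKM in the Vector libraries. MT-ATP8, which shares a bicistronic mRNA with MT-ATP6, had 45.8, 68.3 and 55.3 FPKM against 44.9, 69.4 and 50.6 FPKM. Within a library the MT-ATP6 level per length was 49.7 to 81.7 times that of MT-ATP8. As both genes lie on the same mRNA, this ratio is not read as a difference between transcripts, and its cause was not tested. These FPKM divide by the whole gene, including the shared 46 bases, and how fragments over shared bases were assigned is not given in these sources.

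Complex I, NADH dehydrogenase, takes 7 core subunits of its membrane arm from the mitochondrial genome. MT-ND4 had 2401, 2536 and 2444 FPKM in TIPE2 1, 2 and 3 and 2123, 2015 and 2073 FPKM in Vector 1, 2 and 3. The groups did not overlap, but its log2 change of 0.25 (SE 0.16) did not pass the test (limma, adjusted p = 0.842). MT-ND4L, which shares an mRNA with MT-ND4, had 2501, 2345 and 2073 FPKM against 1071, 1777 and 2005 FPKM. Here too the groups did not overlap, with TIPE2 3 and Vector 3 close together and Vector 1 far below the rest (log2 change 0.56, SE 0.26, limma adjusted p = 0.834). The MT-ND4 to MT-ND4L ratio was 1.98 in Vector 1 and 0.96 to 1.18 in the other 5 libraries.

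MT-ND5, the longest of the mRNA genes, had 768, 691 and 511 FPKM in the TIPE2 libraries and 384, 552 and 529 FPKM in the Vector libraries. TIPE2 1 and 2 lay above all others and Vector 1 was again the lowest, while TIPE2 3 fell between the Vector libraries. MT-ND1 spanned 1867 to 2337 FPKM, MT-ND2 1608 to 1895 FPKM and MT-ND3 1614 to 2246 FPKM over all libraries. MT-ND3 was highest in Vector 1, and the groups overlapped for all 3 genes. Vector 1 was thus the highest library for MT-CO2, MT-CO3 and MT-ND3 and the lowest for MT-ND4L and MT-ND5.

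Complex III, the cytochrome bc1 complex, has 1 mitochondrially encoded subunit, the cytochrome b of MT-CYB. It had 1345, 1428 and 1305 FPKM in TIPE2 1, 2 and 3 and 1126, 1005 and 1073 FPKM in Vector 1, 2 and 3. All 3 TIPE2 values exceeded all 3 Vector values. The log2 change of 0.35 (SE 0.16) did not pass (limma, adjusted p = 0.834). With libraries weighted by their estimated quality it was 0.45 with a limma adjusted p of 0.0462. The estimation of those weights did not converge and gave TIPE2 2 a weight of 8.27 against 0.22 to 1.78 in the other 5 libraries.

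No mitochondrial gene passed the test across all genes. Of 12538 genes averaging at least 1 FPKM, 3 passed at a limma adjusted p under 0.05, which is 0.0239% of those tested, and 0 of the 37 members did. At an unadjusted p under 0.05 there were 4 members, the tRNA genes MT-TM, MT-TW, MT-TK and MT-TY, where 5.99% of all genes were under that value. Among the 13 mRNAs 0 were under it, and all 13 had a positive log2 change, against 48.9% of all genes. Their median was 0.15 with a range from 0.04 in MT-ATP8 to 0.56 in MT-ND4L, beside a median of -0.0056 over all genes tested. TIPE2 was wholly above Vector for 3 of the 13, MT-ND4L, MT-ND4 and MT-CYB, against 6.18% of all genes. Vector was wholly above TIPE2 for 0 of the 13, against 5.31% of all genes. The mRNAs share precursors and libraries, so their directions are not independent of each other.

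The count of positive mRNAs depended on the scaling and the libraries. With quantile normalization 10 of 13 were positive, with a median of 0.11, and MT-ND1, MT-CO2 and MT-ND3 turned negative. Without Vector 1 the median was 0.26 and without TIPE2 3 it was 0.25; 12 and 13 of 13 were positive. Without Vector 3 it was 0.11, with 11 of 13 positive.

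**Figure D2:**
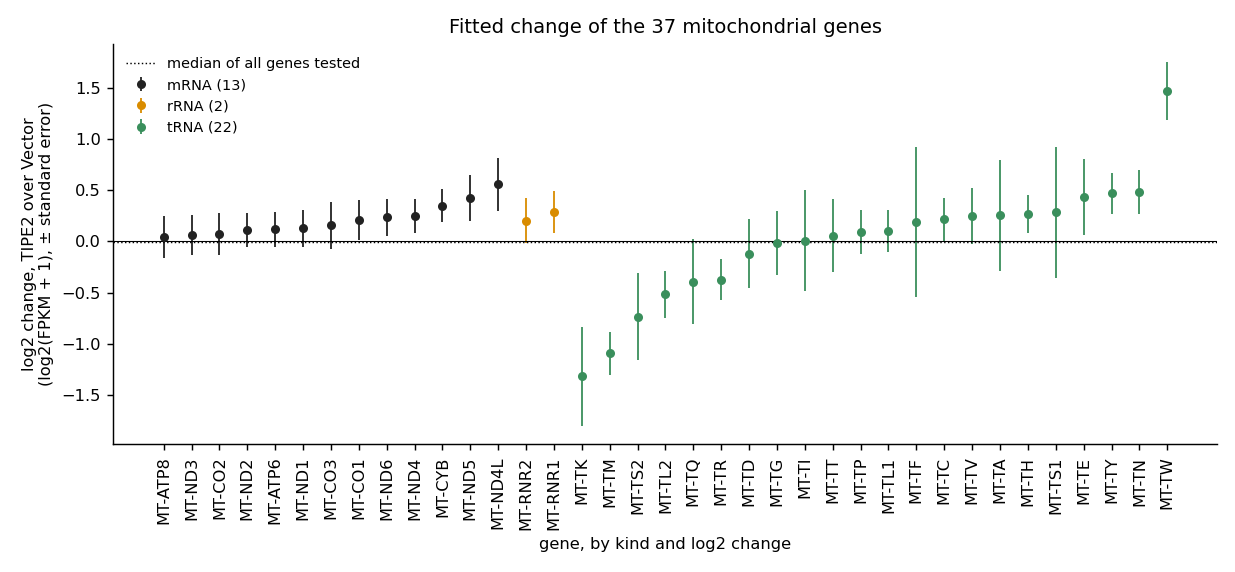
Fitted log2 change (TIPE2 over Vector, on log2(FPKM + 1)) of the 37 genes, sorted within mRNAs, rRNAs and tRNAs; bars are standard errors and the dotted line is the median of all genes tested. All 13 mRNAs and both rRNAs lie above 0, and the tRNA genes run from -1.32 to 1.47.

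The highest value lay in a TIPE2 library for 9 of the 13 mRNAs, 6 of them in TIPE2 2, and the lowest lay in a Vector library for all 13. TIPE2 3 stood apart from its group: it was the lowest TIPE2 library for 8 mRNAs and lay within the Vector range for 8. The mean over the 13 mRNAs of log2 levels centred per gene came to 0.14, 0.19 and -0.01 for TIPE2 1, 2 and 3, against -0.06, -0.12 and -0.13 for Vector 1, 2 and 3. TIPE2 3 was therefore nearer to Vector 1 than to TIPE2 1.

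The share of fragments taken by the mitochondrial genome overlapped between groups. It was 4.06%, 3.88% and 3.26% in TIPE2 1, 2 and 3 (3.73% ± 0.42, SD, n = 3) and 3.40%, 3.15% and 3.14% in Vector 1, 2 and 3 (3.23% ± 0.15, SD, n = 3). TIPE2 3 lay below Vector 1. The 95% Wilson intervals of these shares were at most 0.0182 percentage points wide and cover counting error only. As a share of the FPKM total, which weights short genes more, the values were 16.2%, 15.2% and 12.9% against 12.6%, 12.6% and 12.7%. On that scale the groups did not overlap, and TIPE2 3 was next to the Vector libraries.

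The rRNAs of the small and large ribosomal subunits, MT-RNR1 and MT-RNR2, had positive log2 changes that did not pass. MT-RNR2 had 2970, 2398 and 1844 FPKM in the TIPE2 libraries and 2213, 2118 and 1843 FPKM in the Vector libraries. The span among the TIPE2 libraries was larger than the difference between the group means (log2 change 0.20, SE 0.22, limma adjusted p = 0.857). MT-RNR1 had 492, 387 and 330 FPKM against 378, 324 and 282 FPKM (log2 change 0.29, SE 0.20, limma adjusted p = 0.842). TIPE2 1 was the highest library for both. MT-RNR2 was 5.59 to 6.54 times MT-RNR1 in level per length. The median log2 level of the rRNAs relative to that of the mRNAs came to -0.93, -1.28 and -1.33 for TIPE2 1, 2 and 3, against -1.21, -1.10 and -1.37 for Vector 1, 2 and 3. The group means of -1.18 ± 0.22 and -1.23 ± 0.14 (SD, n = 3) differed by less than the spread between libraries.

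Whether the libraries were made by poly(A) selection or rRNA depletion is not stated in the labels. Among nuclear RNAs without a poly(A) tail, RN7SL2, an RNA of the signal recognition particle, had 139 to 389 FPKM in the TIPE2 and 626 to 1126 FPKM in the Vector libraries without overlap (log2 change -1.75, SE 0.42, limma adjusted p = 0.588). Of 12 such genes in the annotation, 4 had a mean of at least 1 FPKM. RN7SL1, RN7SK, RMRP and RPPH1, which also lack a tail, were at 0 FPKM in every library. NEAT1, a nuclear-retained RNA, had 10.8 ± 1.40 FPKM against 17.8 ± 0.84 FPKM (SD, n = 3; log2 change -0.67, SE 0.12, limma adjusted p = 0.335), also without overlap. The other tested members of these lists overlapped between groups: MALAT1 had 48.5 ± 12.3 against 48.4 ± 6.95 FPKM (log2 change -0.02), and HIST1H2AC, HIST1H1C and HIST2H2AC, histone genes, had log2 changes of 0.09, -0.09 and -0.19. The part of RN7SL2 and NEAT1 in the mitochondrial values was not tested.

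By FPKM the tRNA genes fell into a high pair and a low remainder. MT-TN and MT-TC, which carry asparagine and cysteine, were the only 2 of 22 above 1000 FPKM in every library, at the level of the mRNAs. Together they took 76.4% to 83.7% of all mitochondrial tRNA fragments (95% Wilson intervals at most 2.77 percentage points wide). Of the 22 genes, 17 were below 100 FPKM in every library, 5 had fewer than 10 fragments in every library, and 18 were above 0 in all 6 libraries. The genes are 59 to 75 bases long. Fragment lengths are not stated, and fragments over a tRNA gene may come from mature tRNAs or from precursors, which the tables do not separate.

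**Figure D3:**
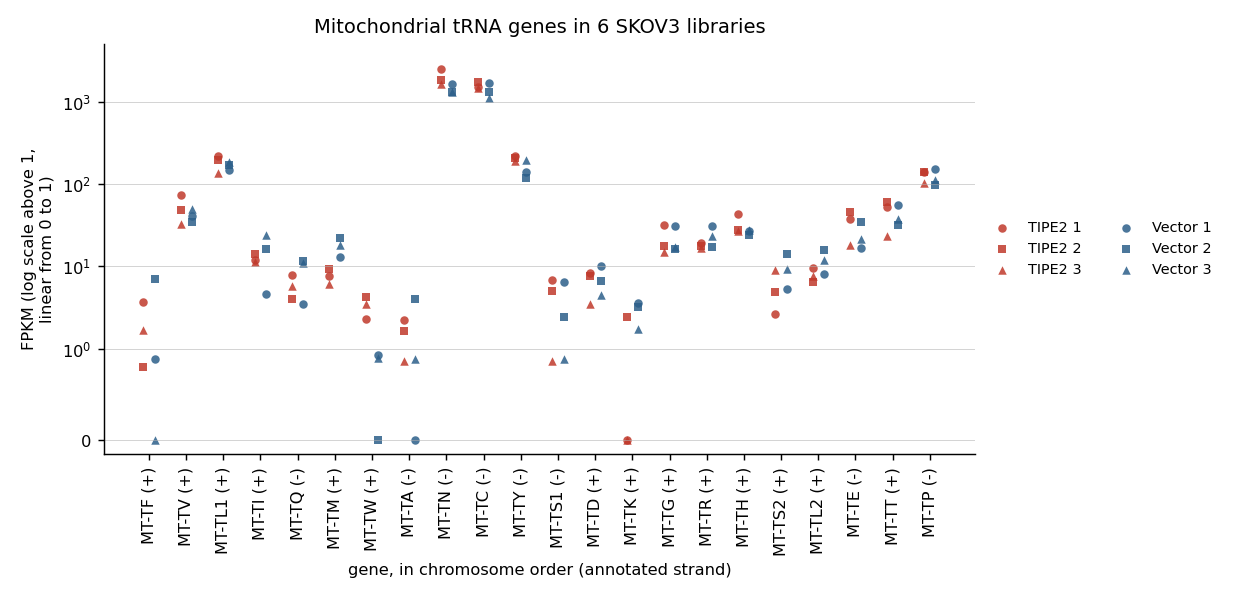
FPKM of the 22 tRNA genes in chromosome order (log axis above 1 FPKM, linear from 0 to 1), with TIPE2 libraries in red and Vector libraries in blue. MT-TN and MT-TC lie above 1000 FPKM in every library, whereas their neighbours MT-TW and MT-TA stay at or below 4.21 FPKM.

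The row of 5 tRNA genes whose sequences are given above showed how far the FPKM of neighbours can differ. MT-TN ends at base 5729 and MT-TC starts at base 5761, with no annotated gene between them. The other neighbours lie closer: MT-TA ends at base 5655 and MT-TN starts at base 5657, and MT-TC and MT-TY share base 5826. How fragments that span neighbouring genes were assigned is not given, and the part of this spacing in the levels was not tested. MT-TN had 2468, 1840 and 1654 FPKM in TIPE2 1, 2 and 3 and 1624, 1296 and 1303 FPKM in Vector 1, 2 and 3. The groups did not overlap, by a small margin between TIPE2 3 and Vector 1 (log2 change 0.48, SE 0.21, limma adjusted p = 0.831). MT-TC had 1496, 1733 and 1478 FPKM against 1704, 1289 and 1115 FPKM, and the groups overlapped. MT-TA, for alanine, lies next to MT-TN on the same strand and had 0 to 4.07 FPKM, 6 fragments in all in each group. MT-TY, for tyrosine, next to MT-TC on the other side, had 218, 207 and 193 FPKM against 138, 120 and 197 FPKM (log2 change 0.47, SE 0.20, limma adjusted p = 0.827). Its groups overlapped through Vector 3. Without strand information, which no source here gives, fragments of these minus-strand genes and of the plus-strand precursor that runs across them cannot be told apart.

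MT-TW, for tryptophan, had 2.30, 4.21 and 3.53 FPKM in the TIPE2 and 0.931, 0 and 0.90 FPKM in the Vector libraries. They rest on 12 fragments against 2, a ratio of rates of 5.62 (exact 95% interval for counting error, 1.25 to 51.7). The groups did not overlap, and the log2 change of 1.47 (SE 0.28) did not pass (limma, adjusted p = 0.343). The count of 0 in Vector 2 allows up to 3 fragments, or 2.47 FPKM, which is above the value in TIPE2 1. MT-TM, for methionine, went the other way, with 7.66, 9.25 and 6.17 FPKM against 13.03, 22.3 and 18.0 FPKM. It had 28 fragments against 61 (ratio 0.43, exact 95% interval 0.264 to 0.683), no overlap and a log2 change of -1.10 (SE 0.21, limma adjusted p = 0.343). MT-TK, for lysine, was at 0 in TIPE2 1 and 3 and at 2.45 FPKM in TIPE2 2, with 1.75 to 3.62 FPKM in the Vector libraries; 3 fragments against 10 gave a ratio of 0.281 with an interval of 0.0497 to 1.09. These intervals pool the fragments of each group, cover counting error only and leave out the spread between libraries. MT-TM, MT-TW and MT-TK were already under an unadjusted p of 0.05 in the limma fit. The intervals are therefore no separate support for a change. With estimated library weights MT-TM (limma adjusted p = 0.0137), MT-TW (0.0256) and MT-TL2, for leucine (0.0377), were called.

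The other tRNA genes did not pass and had mixed directions. Of the 22, 14 had a positive log2 change, against 48.9% of all genes, and 8 a negative one, with a median of 0.10. The positive ones include MT-TF, MT-TI and MT-TA, whose mean FPKM was lower in TIPE2 than in Vector. The groups did not overlap for MT-TN and MT-TW, higher in TIPE2, and for MT-TM, lower. These 2 and 1 of 22 are near the shares over all genes of 6.18% and 5.31%. MT-TL1, the leucine tRNA between MT-RNR2 and MT-ND1, had 219, 196 and 137 FPKM in the TIPE2 and 149, 172 and 186 FPKM in the Vector libraries. MT-TP, the proline tRNA and the last gene by position, spanned 96.5 to 154 FPKM. MT-TE, for glutamate, next to MT-ND6 on its strand, spanned 16.5 to 45.6 FPKM. MT-TF and MT-TS1 ranged from 0 to 7.11 FPKM and from 0.869 to 6.79 FPKM, so that a change of a few fragments sets their fold.

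Relative to the mRNAs, the median log2 level of the 18 tRNA genes above 0 throughout came to -6.06, -6.73 and -6.81 for TIPE2 1, 2 and 3, against -6.21, -6.25 and -6.30 for Vector 1, 2 and 3. The Vector libraries lay close together and inside the TIPE2 range, and the group means differed by -0.28. With summed FPKM, where MT-TN and MT-TC dominate, the difference was 0.14, so the sign of the tRNA to mRNA comparison depended on the summary.

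Fragments were counted by the annotated strand of their gene, not by read strand, which no source here gives. Those over minus-strand genes therefore cannot be told apart from fragments of the plus-strand precursor that runs across them. The shares are not corrected for gene length, and 9 of the 37 genes read on the minus strand. Counted so, plus-strand genes took nearly all mitochondrial fragments. The minus strand took 1.77%, 1.74% and 1.65% of mitochondrial fragments for TIPE2 1, 2 and 3, against 1.67%, 1.65% and 1.505% for Vector 1, 2 and 3, with overlap of the groups. MT-ND6, the only mRNA of that strand and a complex I subunit, had 737, 754 and 572 FPKM against 644, 587 and 516 FPKM (log2 change 0.23, SE 0.18, limma adjusted p = 0.844). TIPE2 3 lay below Vector 1 and 2. Its log2 level relative to the median of the 12 plus-strand mRNAs came to -1.67, -1.64 and -1.82 for TIPE2 1, 2 and 3, against -1.75, -1.64 and -1.91 for Vector 1, 2 and 3. The means of -1.71 ± 0.10 and -1.76 ± 0.14 (SD, n = 3) differed by less than the spread. The minus-strand tRNA genes had a positive log2 change in 7 of 8 cases with a median of 0.27, and the plus-strand ones in 7 of 14 with a median of -0.0072. That difference between strands was not tested. The 7 include MT-TA, which had 6 fragments in each group and a lower mean FPKM in TIPE2 than in Vector. MT-TA, MT-TS1 and MT-TP turned negative in fits with 1 library left out.

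**Figure D4:**
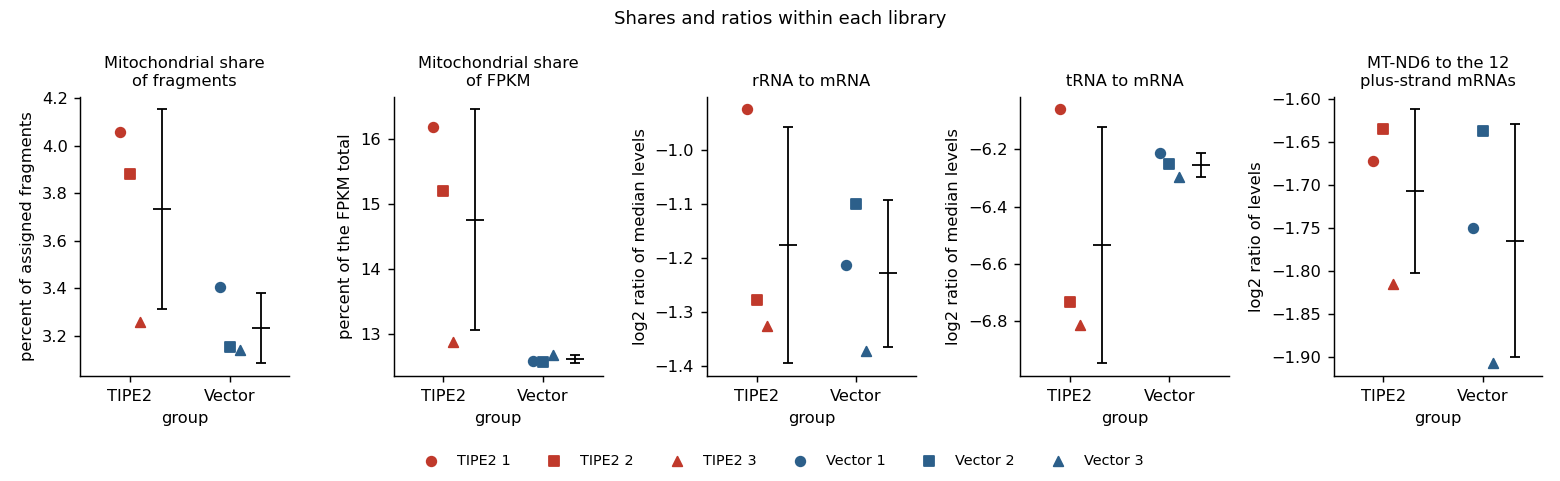
Mitochondrial share of assigned fragments and of the FPKM total (percent) and 3 log2 ratios of levels within each library; points are libraries and bars are the mean ± SD of 3 libraries. The axes do not start at 0. The share of the FPKM total is the 1 panel without overlap, at 12.9% to 16.2% against 12.6% to 12.7%.

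Most nuclear genes of the same complexes had a negative log2 change, and none passed the test. For complex I, 7 of 34 nuclear subunit genes had a positive log2 change (median -0.12), beside 7 of 7 mitochondrial ones (median 0.23). For complex III it was 0 of 8 (median -0.11) beside MT-CYB, for complex IV 2 of 11 (median -0.14) beside 3 of 3 (median 0.15), and for complex V 0 of 15 (median -0.14) beside 2 of 2 (median 0.08). Complex II, which has no mitochondrially encoded subunit, had 1 of 4 positive (median -0.17). The 77 mitochondrial ribosomal protein genes tested had 10 positive and a median of -0.17. NDUFB8, an accessory subunit of complex I, averaged 2.25 ± 0.49 FPKM with TIPE2 against 3.15 ± 0.54 FPKM with the vector (SD, n = 3), without overlap (log2 change -0.36, limma adjusted p = 0.827). UQCR10 of complex III had 54.8 ± 8.25 against 69.6 ± 16.9 FPKM, and COX5A of complex IV 77.3 ± 9.49 against 91.2 ± 16.6 FPKM, both with overlap. NDUFB8, UQCR10 and COX5A had the smallest p of their lists in the limma fit and need not be typical of them. Members of a list share libraries, and a difference between mitochondrial and nuclear lists was not tested.

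**Figure D5:**
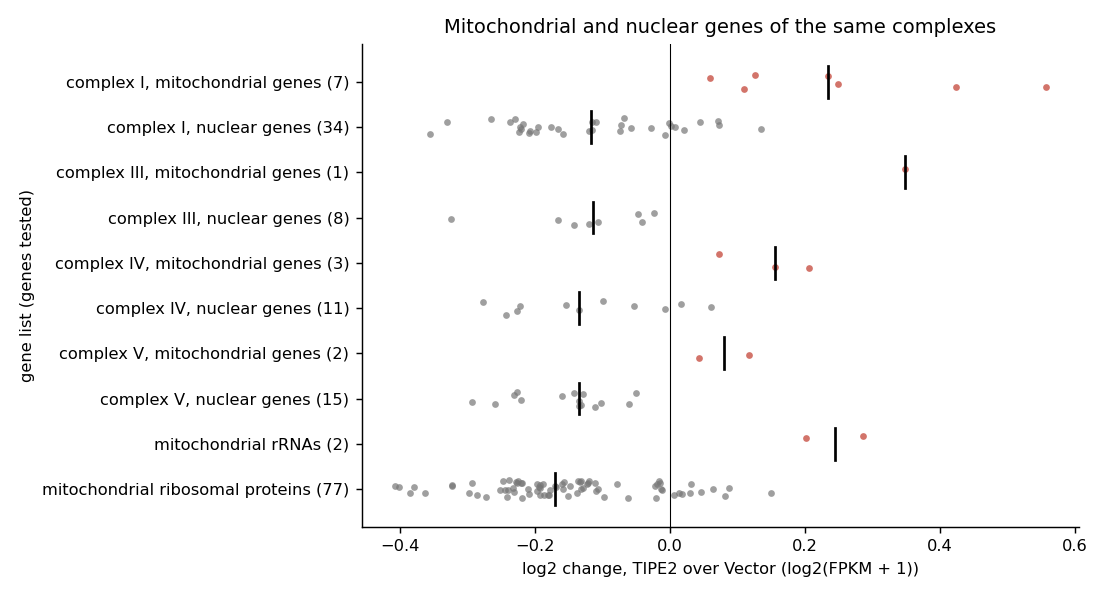
Fitted log2 change (TIPE2 over Vector) of mitochondrially encoded genes (red) and nuclear genes (grey) of complexes I, III, IV and V and of the mitochondrial ribosome; each point is a gene and each black line a median. Nuclear medians lie between -0.17 and -0.11 and mitochondrial ones between 0.08 and 0.35.

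Genes that act on mitochondrial DNA and RNA also gave no call. Apart from TFAM, the genes named in this paragraph and the next were among the 4 of smallest p in their list. They need not be typical of it. Of 8 transcription genes tested, 3 had a positive log2 change (median -0.04). POLRMT, the mitochondrial RNA polymerase, averaged 41.8 ± 3.28 FPKM with TIPE2 against 44.1 ± 1.09 FPKM with the vector (SD, n = 3), with overlap of the groups. TFB1M, the methyltransferase that modifies MT-RNR1, had 3.53 ± 0.15 against 4.50 ± 0.62 FPKM without overlap (log2 change -0.28, limma adjusted p = 0.827). TFAM, which packages mitochondrial DNA and helps start transcription, had a log2 change of 0.01 (SE 0.10); it was added after its value was seen.

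Of 16 genes of mitochondrial DNA replication and upkeep, 6 were positive (median -0.08). TWNK, the replicative helicase, had 1.97 ± 0.27 against 2.89 ± 0.33 FPKM without overlap (log2 change -0.39, SE 0.12, limma adjusted p = 0.736; 0.0438 with estimated library weights). Of 24 genes of RNA processing and tRNA ends, 7 were positive (median -0.11); PUS1, a pseudouridine synthase that acts on tRNAs, had 4.25 ± 1.18 against 5.75 ± 0.34 FPKM. Of 8 genes of RNA stability and decay, 1 was positive (median -0.17); MTPAP, the mitochondrial poly(A) polymerase, had 2.15 ± 0.21 against 2.64 ± 0.17 FPKM without overlap (limma adjusted p = 0.834). Of 7 regulators of mitochondrial biogenesis, 3 were positive (median -0.13); MYC had 26.0 ± 2.18 against 34.1 ± 4.69 FPKM without overlap (log2 change -0.38, limma adjusted p = 0.779).

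The nuclear genome holds copies of mitochondrial genes, and fragments from identical stretches cannot be told apart. Of 394 annotated copies, 357 were at 0 in all 6 libraries and 4 had a mean of at least 1 FPKM, all 4 on chromosome 1. MTND2P28 (GRCh38 chromosome 1, 629640 to 630683) had 191, 177 and 163 FPKM in TIPE2 1, 2 and 3 and 115, 156 and 174 FPKM in Vector 1, 2 and 3. MTATP6P1 (chromosome 1, 633696 to 634376) had 167, 150 and 143 FPKM against 133, 142 and 129 FPKM, without overlap (log2 change 0.19, limma adjusted p = 0.843). Of all stretches of 50 bases, 49.5% of those in MT-CO1, 46.7% in MT-ATP6 and 43.6% in MT-ND2 occur without mismatch in an annotated nuclear copy. Of those in MT-CYB 1.19% do, and of those in the tRNA genes, MT-ND3 and MT-ND4L none. How such fragments were assigned is not stated. Levels of MT-CO1, MT-ATP6, MT-ND2, MT-CO3, MT-CO2, MT-ND1, MT-ND6 and MT-RNR2 are therefore less certain than those of MT-CYB. In bulk RNA, a change in mitochondrial transcripts per cell and a change in the mix of cells cannot be told apart.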

How the data were processed

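RNA sequencing of 6 SKOV3 libraries was analysed, grouped by the titles in the labels. The authors deposited 1 table per library of 58735 Ensembl identifiers with FPKM values, per the file headers. Per the submitters' processing notes, CASAVA 1.7, Bowtie and the build mm8 were used. This is a mouse build, yet every identifier is human and occurs in GENCODE 29 (GRCh38), from which names, coordinates, lengths and sequences were taken. Neither the aligned build nor the counter and its strand setting is given in the sources used here. FPKM times merged exon length and a library denominator yielded whole fragments, within 0.01, for 100% of the values above 0. The denominators, 96.3% to 103% of assigned fragments, equalled median-of-ratios size factors times a constant, so the deposited FPKM are already scaled between libraries. This scaling takes most genes as unchanged.

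Genes averaging at least 1 FPKM in all 6 libraries together entered a limma fit (version 3.58.1, R 4.3.3) of log2(FPKM + 1), using the trend and robust options of its empirical Bayes step and no covariate. The threshold was a Benjamini-Hochberg adjusted p under 0.05 over all genes tested. All fold changes refer to log2(FPKM + 1), where changes of low genes are understated. Recovered fragments served shares, counting intervals and floors (3 fragments for a count of 0). Ratios within libraries are differences of median log2 FPKM and carry no test. Python 3.11.15 was used to read the tables. Only the limma fit was tested on simulated data, with planted changes larger than those of the mitochondrial mRNAs. Its power for changes as small as theirs was not tested.

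The members, gene lists and tests were chosen with earlier results of these data known. All 37 members, TNFAIP8L2 and up to 4 genes of smallest p per list could be named. Alternatives were other scalings, filters, pseudocounts and model settings, replicate blocks and each library left out.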

Additional observations from a re-analysis of the deposited data

How the results depend on the processing

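Over the 15 alternative settings, 509 of 550 alternative values of the 37 members kept their direction and their side of the threshold. For the 13 mRNAs, 186 of 195 values kept their direction. Other filters, the fit without trend and robust options and the replicate block leave each log2 change as it is. Direction could not change in those settings, and both counts include them. The count of 3 genes called became 1 with equal FPKM totals, with equal totals over nuclear genes, with no filter, with a minimum mean of 5 FPKM and with the replicate block, and ran from 1 (without TIPE2 1, TIPE2 2, Vector 2 or Vector 3) to 11 (without TIPE2 3). With estimated library weights it was 400; their estimation did not converge on 6 libraries, the largest weight was 8.27 (TIPE2 2) and the smallest 0.22 (Vector 1), and the cause of the larger count was not tested. Same-numbered libraries did not pair: the deviations of numbers 1, 2 and 3 from their group means correlated by -0.23, 0.15 and 0.19. No mitochondrial gene was called with the replicate block. No scaling moved the median of all genes by more than 0.054.

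The median log2 change of the 13 mRNAs was 0.30 with library weights and ran from 0.11 (without Vector 3) to 0.26 (without Vector 1) with 1 library left out. The difference in mitochondrial share was 0.50 percentage points, ran from 0.34 to 0.74 with 1 library left out, and was 2.16 as a share of the FPKM total. The tRNA to mRNA difference was -0.28, ran from -0.52 to -0.14 and was 0.14 with summed FPKM. With 1 library left out the rRNA to mRNA difference ran from -0.07 to 0.13 and that of MT-ND6 to the plus-strand mRNAs from -0.01 to 0.12, so neither sign was stable.

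The cause of the remaining changes of sign was not tested. With quantile normalization MT-ND1 had -0.032, MT-TI -0.0022, MT-CO2 -0.13, MT-TG 0.056 and MT-ND3 -0.031. MT-TG had 0.011 with equal totals and 0.045 with equal totals over nuclear genes. With library weights MT-TF had -0.95, MT-TI -0.26, MT-TA -0.32, MT-TD 0.25 and MT-TG 0.082. With 1 library left out, log2 changes ran from -0.47 to 1.04 in MT-TF, -0.036 to 0.53 in MT-TV, -0.041 to 0.30 in MT-TL1, -0.63 to 0.45 in MT-TI, -0.29 to 0.88 in MT-TA, -0.19 to 0.91 in MT-TS1, -0.37 to 0.21 in MT-TD, -0.32 to 0.26 in MT-TG, -0.20 to 0.46 in MT-TT and -0.050 to 0.28 in MT-TP. Among mRNAs they ran from -0.023 to 0.22 in MT-CO2, -0.10 to 0.22 in MT-ATP8 and -0.022 to 0.22 in MT-ND3. Depth limits the tRNA genes: 5 of 22 had fewer than 10 fragments in every library.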
